A study of Caenorhabditis elegans with 3 samples.

Results

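Binding of the nuclear hormone receptor NHR-25 was examined at lin-42 and kin-20, 2 of the 19973 nuclear protein-coding genes of Caenorhabditis elegans. Sites were taken from the authors' optimal list, the regions that passed a threshold on reproducibility, and a site belonged to a gene when its summit lay between 5 kb upstream of the gene's outermost transcript start and the gene end. By this rule lin-42 had 3 sites and kin-20 had 9, together 12 of the 4548 regions of the list. The data are chromatin immunoprecipitation and sequencing of whole L2 larvae of mixed sex, in 1 group of 3 biological replicates with no untreated or mutant group. All 3 replicates used strain OP33, which carries the unc-119(ed3) mutation on chromosome III and the integrated transgene wgIs33, which expresses NHR-25 fused at its C-terminal end to GFP and FLAG (the fusion is spelled out in the label of replicate 3). Replicates 1 and 2 carry a label for a size range of 150 to 350 and replicate 3 one for sonication, and replicate 3 also has another label for the source of the worms. Because whole larvae were used, a site cannot be assigned to a tissue. The files hold regions without read counts, and the depth of the libraries is unknown.

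lin-42 encodes the worm homologue of the Period protein of animal clocks, and kin-20 encodes a casein kinase 1 of the delta and epsilon type, the homologue of Doubletime, which phosphorylates Period in flies. In the worm, lin-42 belongs to the heterochronic pathway, which sets the order of larval cell fates, and lin-42 RNA rises and falls once in each molting cycle. NHR-25, of the FTZ-F1/SF-1 family, is itself known for roles in the epidermis and in molting. Both genes have several transcript starts, and the protein made from the a start of lin-42 lacks the PAS region, a protein fold named in part after Period.

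The sites are numbered here along each gene in the direction of transcription. Sequences reaching 50 bp to either side of the summit are shown for the strongest lin-42 site, for lin-42 site 3 with its GAGAGA repeat, and for the 4 strongest kin-20 sites, because the results turn on the strong sites and on what letters lie at their summits. They are plus-strand sequence of the ce11 assembly from RefSeq, whereas both genes are on the minus strand. Capitals mark matches, on either strand, to the motifs named further on, and kin-20 site 8 has none.
lin-42 site 1, chrII:1246977-1247077: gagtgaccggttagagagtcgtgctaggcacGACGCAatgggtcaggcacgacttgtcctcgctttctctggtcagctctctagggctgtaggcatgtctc
lin-42 site 3, chrII:1238045-1238145: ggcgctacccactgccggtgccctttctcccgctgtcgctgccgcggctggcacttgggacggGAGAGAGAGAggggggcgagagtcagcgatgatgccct
kin-20 site 6, chrX:15276879-15276979: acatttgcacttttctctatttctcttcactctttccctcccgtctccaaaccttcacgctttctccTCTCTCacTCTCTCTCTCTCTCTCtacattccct
kin-20 site 7, chrX:15275523-15275623: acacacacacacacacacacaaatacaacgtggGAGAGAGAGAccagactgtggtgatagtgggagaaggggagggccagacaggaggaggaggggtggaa
kin-20 site 8, chrX:15274171-15274271: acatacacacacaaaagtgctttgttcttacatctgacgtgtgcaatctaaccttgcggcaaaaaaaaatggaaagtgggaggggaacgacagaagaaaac
kin-20 site 9, chrX:15273054-15273154: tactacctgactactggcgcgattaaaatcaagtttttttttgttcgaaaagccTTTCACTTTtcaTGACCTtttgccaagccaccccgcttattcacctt

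The 2 genes differed in how their sites were arranged. Strength is given as the signal that the authors' caller gave each region, on a scale the files do not state, and as the rank of that signal within a list, with rank 1 the strongest. lin-42 (WBGene00018572, chromosome II, 1233236 to 1252359, minus strand) had 1 strong site far inside the gene and 2 weak ones, 2623 to 6309 bp apart. kin-20 (WBGene00002203, X, 15268602 to 15277764, minus strand) had a run of 9 sites whose neighbours stood 199 to 1450 bp apart, and the 3 strongest lay between its outermost start and its next start. Over all nuclear optimal sites the median distance to the next summit was 6563 bp, and 20.3% of such distances were at most 1500 bp. The strongest lin-42 site held 68.6% of the summed signal of the gene's 3 sites, and the strongest kin-20 site held 28.6% of that of its 9.

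**Figure D1:**
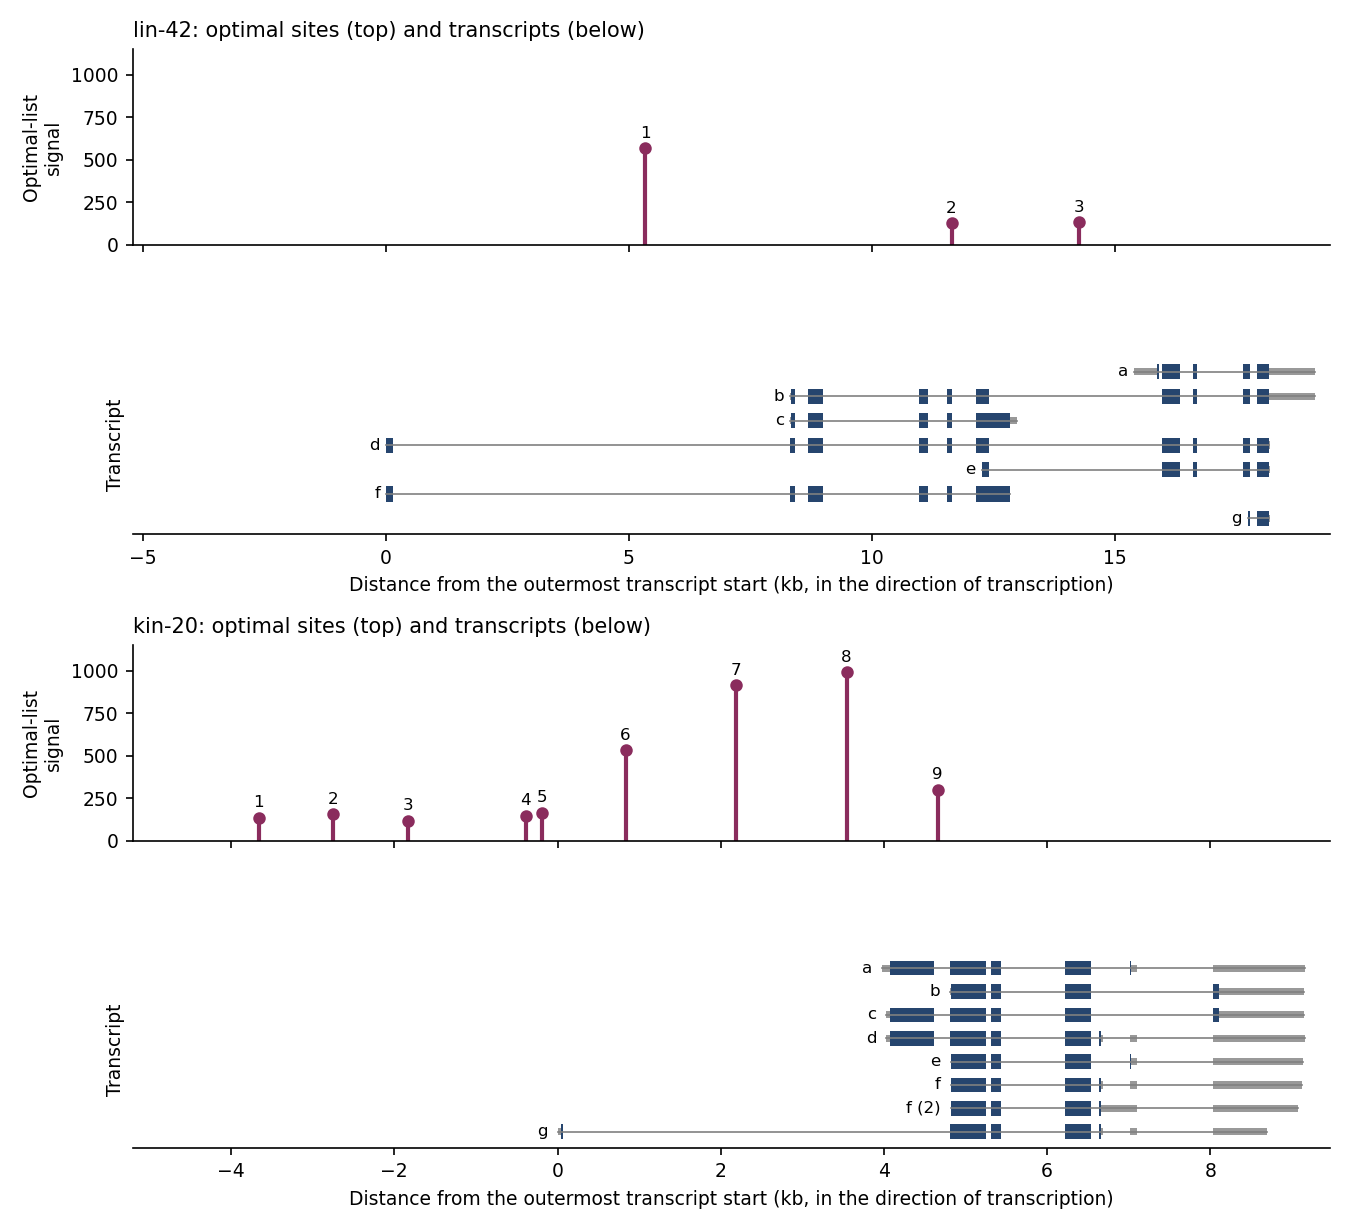
Optimal sites of lin-42 and kin-20 (stems, height is the optimal-list signal) above the annotated transcripts, against distance from the outermost transcript start in kb. Thick blocks are coding exons, thin blocks are untranslated exon parts and lines are introns. The strongest lin-42 site (570) stands in the long intron of transcripts d and f, and the kin-20 sites with signals of 535 to 992 stand in the long intron of transcript g.

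The count of 9 sites at kin-20 was reached or passed by 12 genes in all (0.0601% of the 19973), kin-20 included, and 5 genes had more, which are named here because they are few: egl-27 (13 sites), din-1 (12), mnk-1 (11), lin-35 (10) and ppfr-1 (10). The count of 3 at lin-42 was reached or passed by 609 genes (3.05%). At least 1 site was found at 5207 genes (26.1%), and the median gene had 0. Windows differ in length: the window of lin-42 measured 24.1 kb, a length that 1.09% of the windows reached, and that of kin-20 measured 14.2 kb, which 6.01% reached. Per kilobase of window, kin-20 had 0.635 sites and lin-42 had 0.124. A density at least as high was found at 0.235% of all genes for kin-20 and at 18.7% for lin-42. Only kin-20 and nhr-25 had at least 2 of the 100 strongest optimal regions in their windows (2 genes, 0.01%), and nhr-25 is the gene that the transgene also carries. Overlapping sites were counted separately at every gene. At kin-20, 2 of the 9 sites overlap, and merging them left 8. Genes with overlapping windows share sites, so these counts are a description and not a test.

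**Figure D2:**
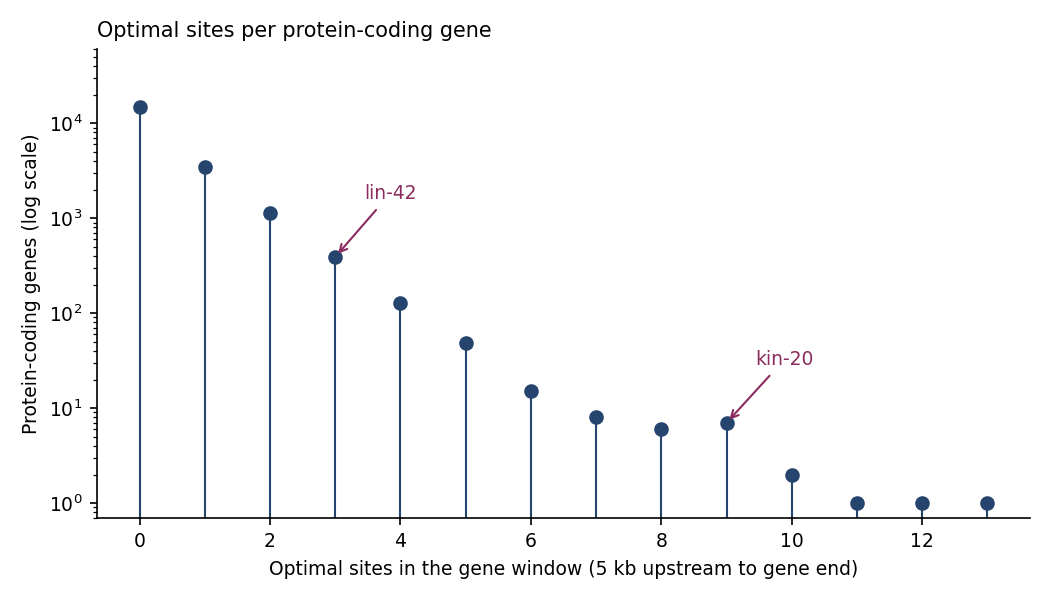
Number of protein-coding genes (log scale) for each number of optimal sites in the gene window. lin-42 is 1 of 390 genes with 3 sites, and kin-20 is 1 of 7 genes with 9.

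At lin-42, site 1 (1246889 to 1247149) had a signal of 570 and rank 290 in the optimal list. It ranked 791 in replicate 1, 121 in replicate 2 and 385 in replicate 3, among 30000 regions in each list. All 3 ranks lie among the strongest 4548 regions, the number used here to call a site supported by a replicate. The summits of the 3 replicates, at 1247028, 1247020 and 1247027, fell within 8 bp of each other, and the median spread over the 2501 nuclear sites supported by all 3 replicates was 53 bp. This summit lies 5332 bp inside the gene, in the long intron of transcripts d and f, and 2992 bp upstream of the start shared by transcripts b and c.

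The other lin-42 sites were far weaker. Site 2 (1240523 to 1240912) had a signal of 128 and rank 3647, with ranks of 15993, 4558 and 3330 in replicates 1, 2 and 3. It was supported by replicate 3 and missed support in replicate 2 by a few places. Its summit was in an exon of coding sequence (1240701 to 1240807) shared by transcripts b, c, d and f, the only one of the 12 in coding sequence. Coding exons held 2.92% of nuclear optimal summits and make up 24.6% of the nuclear genome. Site 3 (1237900 to 1238289) had a signal of 134 and rank 3472, with ranks of 4780, 4822 and 4489. It stood just beyond the limit in replicates 1 and 2 and just inside it in replicate 3. Thus 1 of 3 lin-42 sites was supported by all 3 replicates, against 55.3% of nuclear optimal sites, and the other 2 by 1 replicate, against 16.2%. Support was built into the optimal list, since the threshold on reproducibility used the same replicates.

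**Figure D3:**
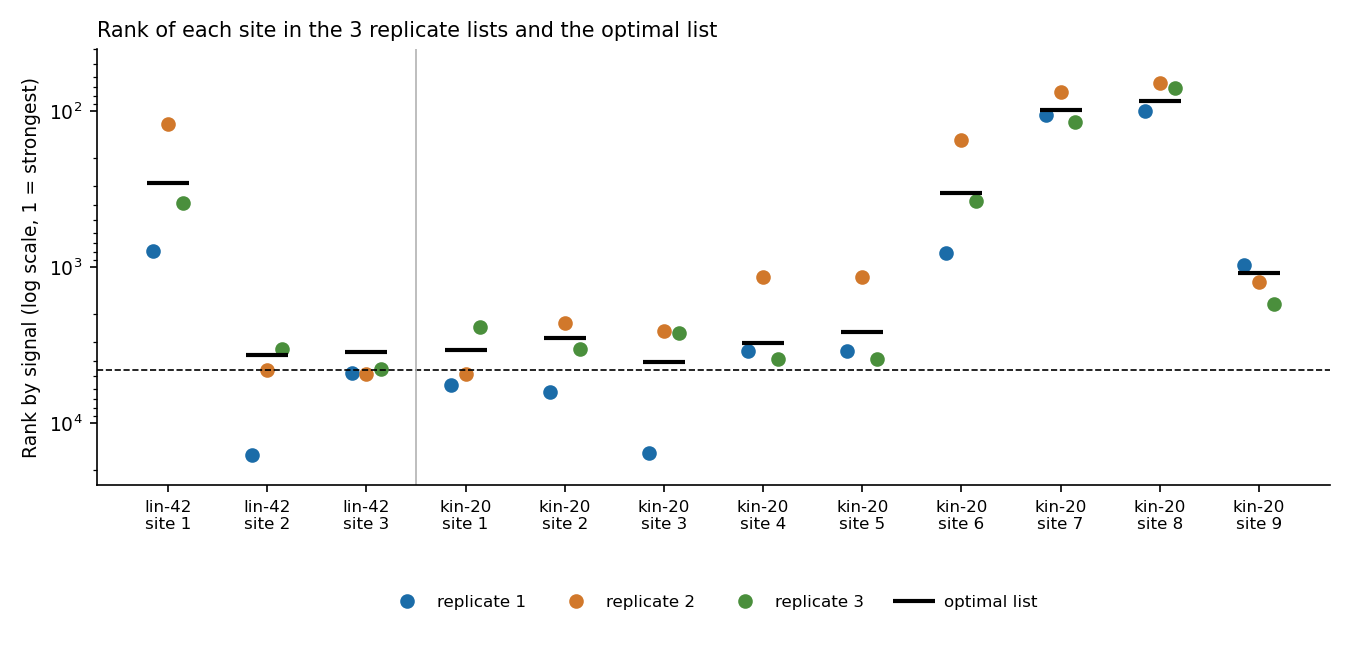
Rank by signal (log scale, strongest at the top) of each of the 12 sites in the 3 replicate lists (points) and in the optimal list (bars). The dashed line is rank 4548. lin-42 site 1 and kin-20 sites 6 to 9 lie above rank 2000 in every replicate, and lin-42 site 3 lies about the line. lin-42 site 2 and kin-20 site 3 are far under the line in replicate 1.

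At kin-20, the 2 strongest sites recurred with similar ranks in each replicate. Site 8 (15273948 to 15274457) had a signal of 992 and rank 86, and ranked 99, 66 and 71 in replicates 1, 2 and 3. Its replicate summits fell within 5 bp. Site 7 (15275263 to 15275811) had a signal of 917 and rank 98, and ranked 106, 75 and 117. The optimal ranks include 22 mitochondrial regions that stood above both of these sites.

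Site 6 (15276745 to 15277170) had a signal of 535 and rank 333, and ranked 807 in replicate 1, 152 in replicate 2 and 376 in replicate 3. Site 9 (15272987 to 15273202) had a signal of 299.9 and rank 1082, and ranked 960, 1243 and 1717. All 4 sites were therefore among the strongest regions of every replicate. The outer 5 sites, upstream of the g start, were weaker, with signals of 118 to 166 and optimal ranks of 2608 to 4023. Their summits stood 3659, 2752, 1838, 388 and 189 bp upstream of that start for sites 1 to 5. Site 1 (15281228 to 15281617) ranked 5656, 4801 and 2416 in replicates 1, 2 and 3. Site 2 (15280321 to 15280710) ranked 6250, 2290 and 3347. Site 3 (15279407 to 15279796), the weakest of the 9, ranked 15507, 2565 and 2646. At each of these 3 sites replicate 1 gave the weakest rank.

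Sites 4 (15277957 to 15278346) and 5 (15277917 to 15278026) of kin-20 overlap and match the same replicate regions, which ranked 3440, 1147 and 3875, so they are not independent. The summits of those replicate regions were spread over 277 bp, and that of replicate 1 lay outside site 5. Counting each, 6 of 9 kin-20 sites were supported by all 3 replicates, against 55.3% of nuclear optimal sites. Merging the pair left 8 sites in all, with the pair counted once among those supported. Sites 2 and 3 were supported by replicates 2 and 3 only, and site 1 by replicate 3 only. Required to overlap by 50% of the length of both regions, the strongest regions supported 2 of the 9 in all 3 replicates. Required instead to have a summit within 100 bp of that of the site, they supported 4. Counted directly, the window of kin-20 held 7, 8 and 8 summits of the strongest 4548 regions of replicates 1, 2 and 3, and that of lin-42 held 3, 2 and 3. In all 3 replicates the count was thus higher at kin-20, the shorter gene. Most of these regions at kin-20 overlap its optimal sites, which were thresholded on the same replicates, so the counts are not separate support. The same count is not given here for other genes.

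**Figure D4:**
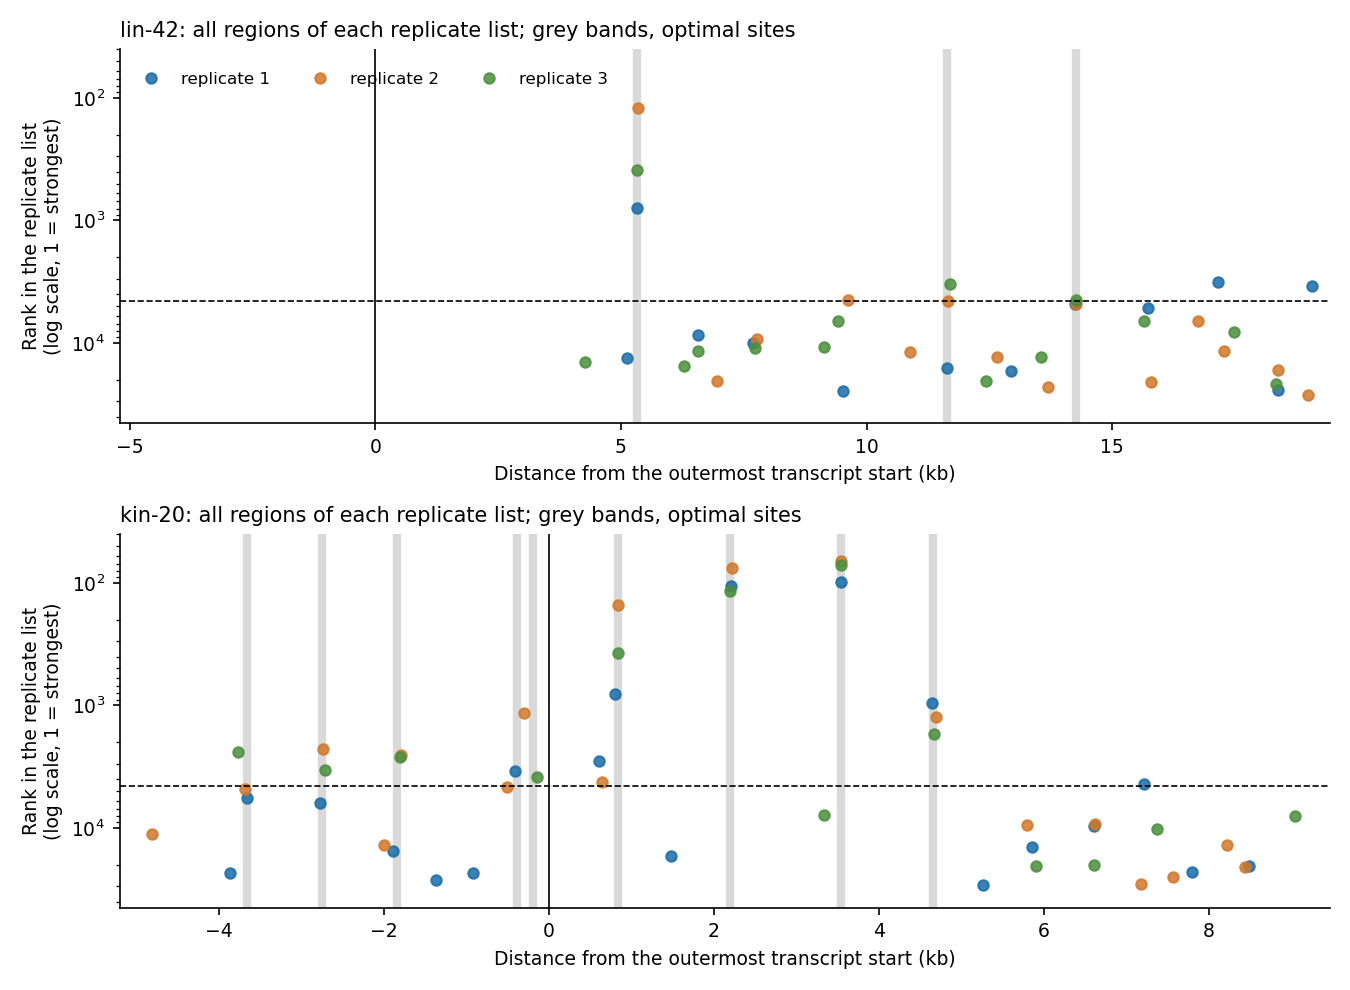
All regions of each replicate list in the windows of lin-42 and kin-20 by distance from the outermost transcript start (kb) and rank (log scale, strongest at the top). Grey bands mark optimal sites, the dashed line is rank 4548 and the vertical line is the outermost start. In lin-42 the only position where all 3 replicates pass rank 1000 is that of site 1, and the window around the outermost start of lin-42 holds no region of any replicate.

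The next question was which of the alternative promoters carried sites. Starts of a gene within 100 bp of each other were joined, and a promoter ran from 1000 bp upstream to 200 bp downstream. All 3 promoters of kin-20 held an optimal site. Of 25877 promoters in the genome, 3185 did (12.3%), and of the 683 genes with exactly 3 promoters, 33 had a site at each (4.83%). The promoter of transcripts a, c and d (15273739 to 15273789) held the gene's strongest site, site 8, 432 bp upstream of the start of a. That of b, e and f (15272947 to 15272952) held site 9, 152 bp upstream of the start of b. The outermost promoter, of transcript g (15277764), held sites 4 and 5 with summits 388 and 189 bp upstream, the best ranked 2608. The strongest kin-20 site was thus at an internal start. Site 7 was 1784 bp upstream of the start of a, and site 6 was 835 bp downstream of the start of g, so neither fell in a promoter window.

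At lin-42, 1 of 5 promoters held an optimal site, where 30 of the 102 genes with exactly 5 promoters had a site at 1 or more (29.4%). It was that of transcript e (1240101), with the weak site 2 at 617 bp upstream, and it was lost when sites had to be supported by replicates 2 and 3, by 1 and 3 or by 1 and 2. The promoter of d and f (1252359), the outermost, held no region at any rank in the 30000 of any replicate. The same was true of 11942 of the 25877 promoters (46.1%). The promoter of transcript a (1236969) was empty as well, with site 3 at 1126 bp upstream, just outside the window. The promoter of b and c (1244035) held only regions that ranked 9959, 9265 and 10983 in replicates 1, 2 and 3, all far below the strongest 4548. That of g (1234625) held regions of which the strongest ranked 3156, 6635 and 8173 in replicates 1, 2 and 3. These are not all the same region: the replicate 2 region overlapping that of replicate 1 ranked 11741. Many worm mRNAs receive a spliced leader, so an annotated start need not be where transcription begins. The annotated transcripts d, e, f and g of lin-42 begin with coding sequence at their first base. The starts of e and g lie in coding exons of other lin-42 transcripts.

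No optimal site lay in the further 5 kb upstream of the lin-42 window. The nearest site beyond the kin-20 window, 6208 bp upstream of the g start with a signal of 199.9 and rank 2019, lay 143 bp from the start of jud-4, a neighbouring gene on the other strand. Within the window, kin-20 site 1 was 3659 bp upstream of the g start and 2692 bp from the start of jud-4, so that gene was nearer. The other 8 kin-20 sites and the 3 lin-42 sites had a start of their own gene as the nearest.

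The positions of the sites were also set beside annotation that had played no part in choosing them. Of 12 summits, 5 lay inside or within 100 bp of a gene annotated by Ensembl as ncRNA, a transcript with no coding frame, against 493 of 4524 nuclear optimal summits (10.9%) and 2.34% of the nuclear genome. This feature was chosen after the values were seen. The 4 strongest of the 12 sites were among the 5. The summit of lin-42 site 1 lay inside F47F6.13 on the plus strand (1246968 to 1247045) and F47F6.15 on the minus strand (1247011 to 1247153). That of kin-20 site 8 lay inside F46F2.10 (15274212 to 15274324), that of site 7 was 23 bp from F46F2.12, and that of site 6 was 59 bp from F46F2.9. The weak kin-20 site 3 was 54 bp from C02D4.15. Among the optimal regions ranked 500 or better, 14.5% of nuclear summits were as close to such a gene.

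The sites were also compared for the letters of 9 motifs within 50 bp of the summit on both strands. CAAGGNC, the core of the extended half-site of FTZ-F1 receptors, was not found at any of the 12 summits, where 4.93% of nuclear optimal summits held it. Within 100 bp it was found at 2 kin-20 sites and 0 lin-42 sites, against 8.47% of all. The short receptor half-site AGGTCA was found at kin-20 site 9 alone (6.56% of all), in the shown sequence as its reverse complement, beside a match to TTTCNCTTT (3.96%), a form of the BLMP-1 site. GAGAGA, which overlaps itself in repeats, was found at lin-42 site 3 and kin-20 sites 6 and 7 (24.6% of all). GACGCA was found at lin-42 site 1 and kin-20 sites 3 and 5 (11.9% of all).

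CACGTG, an E-box of the kind bound by clock factors in other animals, was not found at the 12 summits (5.88% of all). AACCGGTT, the Grainyhead site, was likewise absent from these windows (1.08% of all), and so was AGATAA, a site for GATA factors (7.89% of all). The longer site of the type known for NHR-23, which contains the receptor half-site, was not found at the 12 either (0.111% of all). In all 2 of 3 lin-42 and 5 of 9 kin-20 summits held at least 1 of the 9 motifs, where 50.3% of all summits did. GC content within 50 bp of the summits ran from 40.6% at kin-20 site 9 to 69.3% at lin-42 site 3, and it exceeded the median of all nuclear summits (42.6%) at 10 of the 12. A match is a description of sequence and does not show which protein was bound.

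Other genes of the same pathways were given the same windows. Of 34 genes in lists of heterochronic genes, homologues of clock genes, casein kinase 1 genes and factors of the molting oscillator, 26 had at least 1 optimal site (76.5%, against 26.1% of all protein-coding genes), with a median of 1 site per gene where the median over all protein-coding genes was 0. The 34 include 5 microRNA genes, and of the 29 protein-coding genes among them 25 had a site (86.2%). The windows of these 29 were longer, with a median of 10.6 kb against 7.03 kb over all protein-coding genes, and the part of window length in the shares was not tested. The lists were also chosen with earlier results of these data known, so the shares are a description and do not show an enrichment. None of the 34 reached the 9 sites of kin-20, and 7 had at least 3, as lin-42 and 3.05% of all protein-coding genes did. In the optimal list, the strongest site of kin-20 ranked below only those of nhl-2 (27), which encodes a cofactor of microRNA complexes, and of puf-9 (46), a Pumilio gene. Between kin-20 and lin-42 stood atf-2 (126), a bZIP gene, ain-1 (181), a GW182-type gene of microRNA repression, and nhr-85 (196), a receptor of the Rev-erb type.

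Of the 18 heterochronic genes, 12 had a site, where 26.1% of all protein-coding genes did. The limits of window length and of the choice of lists hold for each list. lin-14, a regulator of early fates, had 7 sites in a window of 25.3 kb, the strongest with rank 837. The let-7 microRNA gene had 1 with rank 401, with support from all 3 replicates. No other microRNA gene of the list had one: lin-4, mir-48, mir-84 and mir-241. No optimal site was found at lin-29, which encodes the zinc finger factor of the larval-to-adult switch, or at alg-2, an Argonaute gene. Among 10 homologues of clock genes, 8 had a site, with 6 at nhr-85, 3 at nhr-23, of the ROR type, and 1 at tim-1, the Timeless homologue (rank 435), while kin-10 and ces-2 had 0. The site of kin-3, a casein kinase 2 gene (rank 3938), was supported by no replicate. The listed casein kinase 1 genes, kin-19 of the alpha type and csnk-1 of the gamma type, had 1 site each, with ranks 2219 and 1880. Further genes of that family were not examined. All 6 oscillator factors had a site, from 6 at nhr-85 and 5 at myrf-1 to 1 at bed-3. They include nhr-23 and nhr-85, already counted among the homologues of clock genes. kin-20 thus stood above kin-19 and csnk-1 in number of sites and in the rank of the strongest.

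**Figure D5:**
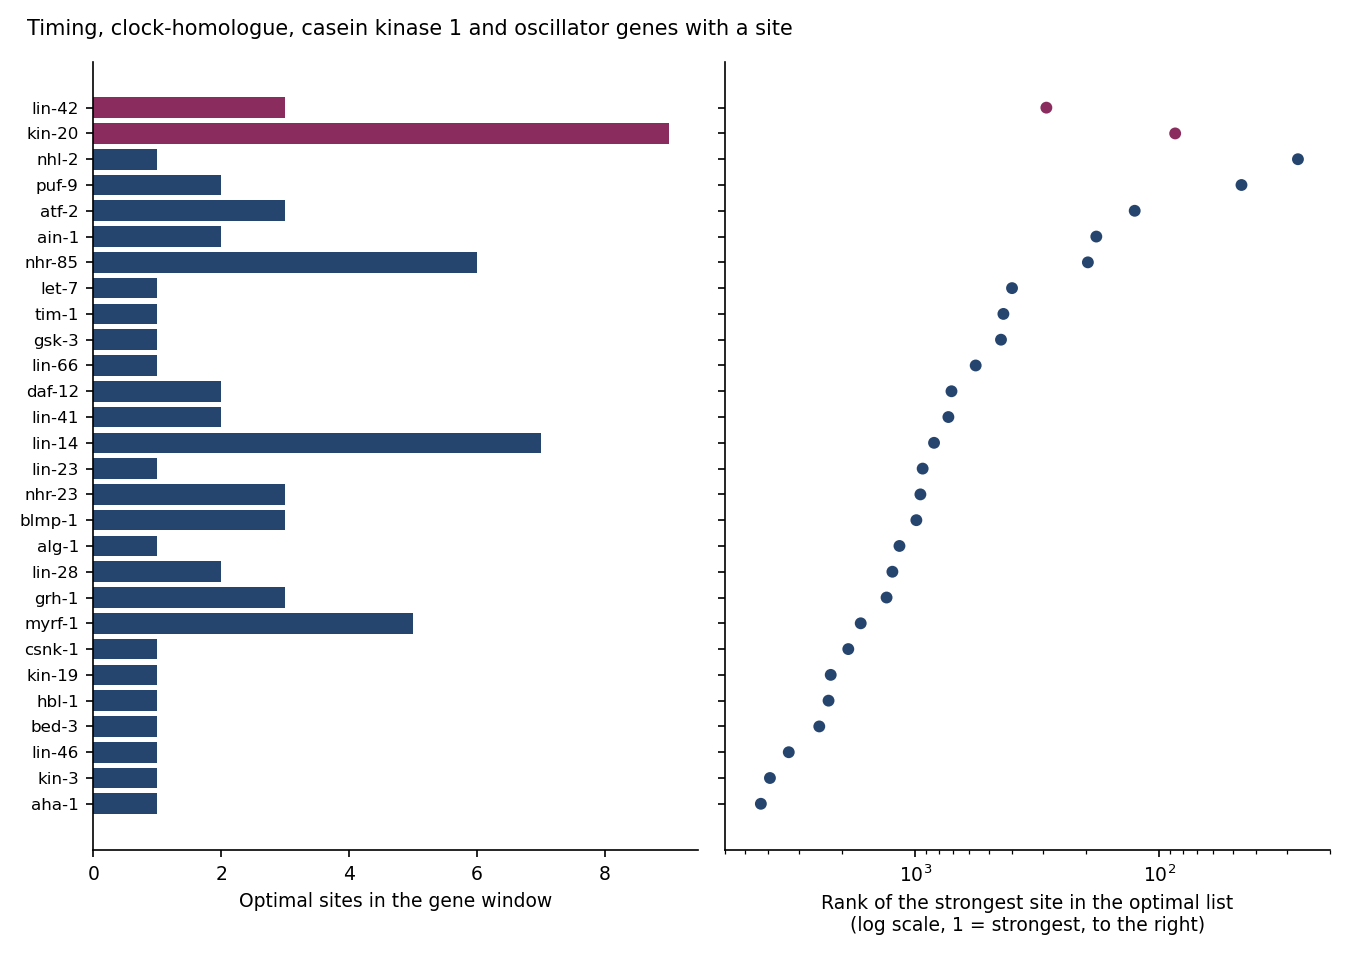
Number of optimal sites in the gene window (left) and rank of the strongest site in the optimal list (right, log scale, strongest to the right) for lin-42, kin-20 and the 26 listed genes with a site. kin-20 has 9 sites and rank 86, lin-42 has 3 and rank 290, and only nhl-2 and puf-9 rank above kin-20.

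The genes most like each of the 2 were sought over the 3 replicates by the mean absolute difference in log10 rank of the strongest region, among genes whose number of sites differed by at most 1. nhr-25 and unc-119, which the strain's alleles concern, were left out. For kin-20 there were 13 candidates. The closest were W06H8.6 (difference 0.165, ranks 48, 97 and 73 in replicates 1, 2 and 3), ccch-1 (0.273) and ell-1 (0.282), each with 9 sites. For lin-42 there were 1640 candidates, and the closest were Y38E10A.14, Y38E10A.28 and nspe-5 (0.127 each, ranks 738, 187 and 560). Each had 2 sites, where lin-42 had 3. Those 3 genes lie close together on chromosome II with the same strongest region, so they count as 1 locus. With 3 replicates per value this likeness is a description.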

How the data were processed

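Only ce11 lists were used. Per a note deposited with the files, the authors called 30000 regions, peaks mixed with background, for each replicate and for the 3 pooled, against a shared control not analysed here, and the optimal list holds those passing a reproducibility threshold (irreproducible discovery rate). What aligned the reads and called regions is not given in the sources used here. Each deposited region has a signal of unstated scaling, so lists were compared by rank, and a −log10 q-value, tied at its maximum for 3849 of 4548 optimal regions. Depth is unknown.

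A summit is the region start plus the deposited offset, 1-based. Genes came from Ensembl release 115 (WBcel235) and sequence and microRNA genes from RefSeq for that assembly. All region ends fell within its chromosomes. Support means at least 1 bp of overlap with the 4548 strongest regions of a replicate. No tests were run, because there is 1 group. Members, lists, motifs and alternatives were chosen with earlier results of these data known. Named genes were lin-42, kin-20, nearest genes, listed genes and the 3 most similar, plus genes named for a small count. Programs, in Python 3.11.15 with pandas 2.3.3, were tested on simulated data.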

Additional observations from a re-analysis of the deposited data

How the results depend on the processing

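Of 60 alternative values for the 10 results, 45 kept the value and 15 moved. A value was kept if within 1.5 times, or for a rank within 1 SD of the replicates. Some alternatives could not move, so the 45 is not a measure of stability. A rank with a replicate left out always lies within that SD. At lin-42 no starts lay within 100 bp of each other and no sites overlapped, so merging could change neither count. For lin-42, the 3 sites became 1 in the stronger 2274 optimal regions, and 1 to 1 when a replicate was left out and the remaining replicates had to support the site. Its sites supported by all 3 replicates became 2 with 2 times as many regions per replicate. Its promoters with a site became 0 with 500 bp upstream, 0 in the 2274 strongest, 2 with 2000 bp upstream, 3 with each summit given to the nearest start, and 0 to 0 without each replicate. For kin-20, the 9 sites became 4 in the 2274 strongest and 6 to 8 without each replicate. Its 6 sites supported by all 3 became 2 with overlap of 50% of both regions, and its promoters with a site became 5 with starts not merged, since 2 of the promoters each join 2 starts. In the 2274 strongest, 2 of the 3 kin-20 promoters held a site. Alternatives chosen after seeing the data were RefSeq starts, which gave the same promoter counts, and keeping only sites nearest to a start of the gene, which left 3 lin-42 and 8 kin-20 sites. Without each replicate in turn, kin-20 had 3 promoters with a site. No paired analysis was possible because there is 1 group. Peak lists give no read counts, so no error from depth can be attached. Lists on the ce10 build were not used here.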

Other observations

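Strong regions of single replicates that did not reach the optimal list were found within both genes. In lin-42, replicate 1 had regions that ranked 3412 and 3156 near the end of the gene, with summits at 1233292 and 1235204, and in replicate 2 the regions overlapping them ranked 4708 and 11741. Replicate 3 had no region overlapping the one at 1233292. Replicate 2 had one at 1242734 that ranked 4493, and the region overlapping it ranked 24783 in replicate 1 and 6648 in replicate 3. In kin-20, replicate 1 had one at 15270553 that ranked 4413, and the region overlapping it ranked 25344 in replicate 2 and 10277 in replicate 3. No optimal site lay in kin-20 beyond site 9, at 4660 bp inside the gene of 9.16 kb.

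The strongest lin-42 site and kin-20 site 6 had unequal ranks in the replicates. The ratio of the largest to the smallest rank was 6.54 for lin-42 site 1 and 5.31 for kin-20 site 6. Among nuclear sites within 100 places in the optimal list, the median ratio was 2.02 for both, and 1.51% and 3.03% had a ratio as large. Both sites ranked highest in replicate 2 and lowest in replicate 1. The ratios were 1.56 and 1.5 for kin-20 sites 7 and 8, where the median of their neighbours was 1.88 and 1.89. Large ratios were found at weak sites as well, 6.05 at kin-20 site 3 and 4.8 at lin-42 site 2. There, 17.7% and 12.8% of the neighbours had a ratio as large. These values were chosen after they were seen.

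Signals in the optimal list were 1.78 to 2.17 times those of the overlapping regions of the pooled list at the 12 sites, with a median ratio of 2.02 over 4520 nuclear sites. The lists derive from the same replicates per the deposited note, and the source of the ratio was not tested.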
